A study of Mus musculus with 6 samples.

Results

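The replication-dependent histone genes are the clustered genes named Hist1h, Hist2h, Hist3h and Hist4h in the GENCODE annotation of mm9. All protein-coding genes with such a name were taken as members, which gave 67 of the 22350 protein-coding genes on chromosomes 1 to 19 and X. They encode the linker histone H1 (6 genes) and the core histones H2A (19 genes), H2B (18 genes), H3 (11 genes) and H4 (13 genes). By the longest annotated coding sequence of each gene, the 13 H4 genes encode 1 protein and the 11 H3 genes 3 distinct proteins. The counts are 10 for H2A, 12 for H2B and 6 for H1. They depend on the gene models: Hist2h3c1 is annotated with 543 coding bp, against 408 bp for the other H3 genes. Some H2B models also differ in length, such as Hist2h2bb (360 bp) and Hist1h2bp (414 bp), against 378 bp for most. Replication-dependent histone genes are transcribed mainly in S phase, when newly copied DNA has to be packed. They are gathered in the nucleus in histone locus bodies built around the NPAT protein. Their mRNAs end in a stem-loop bound by SLBP instead of a poly(A) tail. Many H2A and H2B genes lie head to head and share the DNA between their starts as a promoter.

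The study asked how loss of Spen, a co-repressor that binds RNA, changes chromatin accessibility in mouse embryonic stem cells (mESCs). Its 6 samples are the line HATX WT, Spen KO clone 2 and Spen KO clone 3, each line with 2 samples, 1 without doxycycline and 1 given 2 ug/ml doxycycline for 48 hours to turn on Xist. All lines are haploid mESCs with an inducible Xist on the X chromosome, kept in serum and LIF, and each knockout line is a single clone. ATAC-seq, in which the Tn5 transposase inserts adapters into open chromatin, gave 1 peak list per line from 2 technical replicates, for WT and Spen KO clone 3; the lists state the line but not the doxycycline state, and clone 2 was not analysed here. The WT list held 22698 peaks and the clone 3 list 23656 peaks on chromosomes 1 to 19 and X. Read depth is not known for either list. For each peak the score was the mean of the authors' values for the replicates, on a scale that is not named, and it was turned into a percentile, the share of peaks in the same list with a score at or below it. The percentile was also taken for each replicate value alone. This pair of replicate percentiles is the error where it is printed, and some percentiles stand without it. Each line had a single list, so the lines were compared without a test. Presence in a list also depends on the depth and threshold of that list.

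Most histone genes lay beside open chromatin in both lines. In WT, 57 of 67 members (85.1%) had a peak within 1 kb of the gene, against 53.3% of all coding genes. In Spen KO clone 3, 54 members (80.6%) had one, against 50.1% of all coding genes. Both lists had a peak at 49 members, and 5 members had none in either list. Of all 22350 coding genes, 11905 had a WT peak, 1779 of them in WT only, and 1065 had a peak in clone 3 only. The other coding genes had none in either list. A peak was found in WT only at 8 members (11.9%, against 7.96% of all coding genes) and in clone 3 only at 5 members (7.46%, against 4.77%). Both list-only shares of members were higher than in the background, as was the share of members with any peak. Neighbouring members can share a peak, so these gene counts repeat some peaks. For example, 1 WT-only peak stood for Hist2h2ab, Hist2h2ac and Hist2h2be, and 1 for Hist1h2ae and Hist1h2bg. Counted by peak, 14.3% of WT member peaks were WT-only, against 20.2% of WT peaks near annotated coding gene starts. In clone 3 the shares were 12.2% and 12.9%. Among genes with a peak in the list, the list-only shares were close to the background. They were 14.0% of members and 14.9% of all coding genes in WT, and 9.26% and 9.52% in clone 3. At the stricter limit of 0.01 on the Irreproducible Discovery Rate (IDR), 50 members had a WT peak, against 9566 of 22350 coding genes. A clone 3 peak was found for 40 members, against 8131 coding genes, and 38 members had both. So 12 members counted as WT only (17.9%, against 9.29% of all coding genes) and 2 as clone 3 only (2.99%, against 2.87%). Among genes with a peak at this limit the WT-only share was 24.0% of members and 21.7% of all coding genes, and the clone 3-only share 5% (2 of 40) and 7.88%. Within 1 kb of the annotated start alone, 56 members had a WT peak (43.0% of all coding genes) and 52 a clone 3 peak (39.3% of all coding genes).

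Histone genes are so short and so close together that a peak within 1 kb can belong to a neighbour. A closer measure, chosen after the data were seen, was a peak over the first coding base (the coding start), because the annotated start of Hist1h2be lies 35168 bp from its coding start, that of Hist2h3c1 1197 bp and that of Hist1h3f 433 bp. By this measure 50 members had a WT peak (against 21.5% of all coding genes) and 47 a clone 3 peak (against 18.6% of all coding genes). This background is not matched for the distance between annotated and coding start. That distance was over 300 bp in only 3 members and was not measured in other genes. Within 1 kb of the annotated start the shares of all coding genes were 43.0% in WT and 39.3% in clone 3. Both lists covered the coding start of 41 members. Of all 22350 coding genes, 4816 had a WT peak over the coding start, 1200 of them in WT only and the others in both lists. The WT list alone covered 9 (13.4%, against 5.37% of all coding genes) and the clone 3 list alone 6 (8.96%, against 2.44%). A peak shared by a pair counted for both of its genes. Of members with a WT peak over the coding start, 18.0% had it in WT only, against 24.9% of all such coding genes, and the clone 3 shares were 12.8% and 13.1%. The 11 members with an uncovered coding start in both lists were the 5 without any peak and Hist1h4m, Hist1h4a, Hist1h2af, Hist2h2ab, Hist1h3c and Hist1h3d, which had a peak within 1 kb. At Hist1h4m that peak lay over the gene and began just past its coding start.

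**Figure D1:**
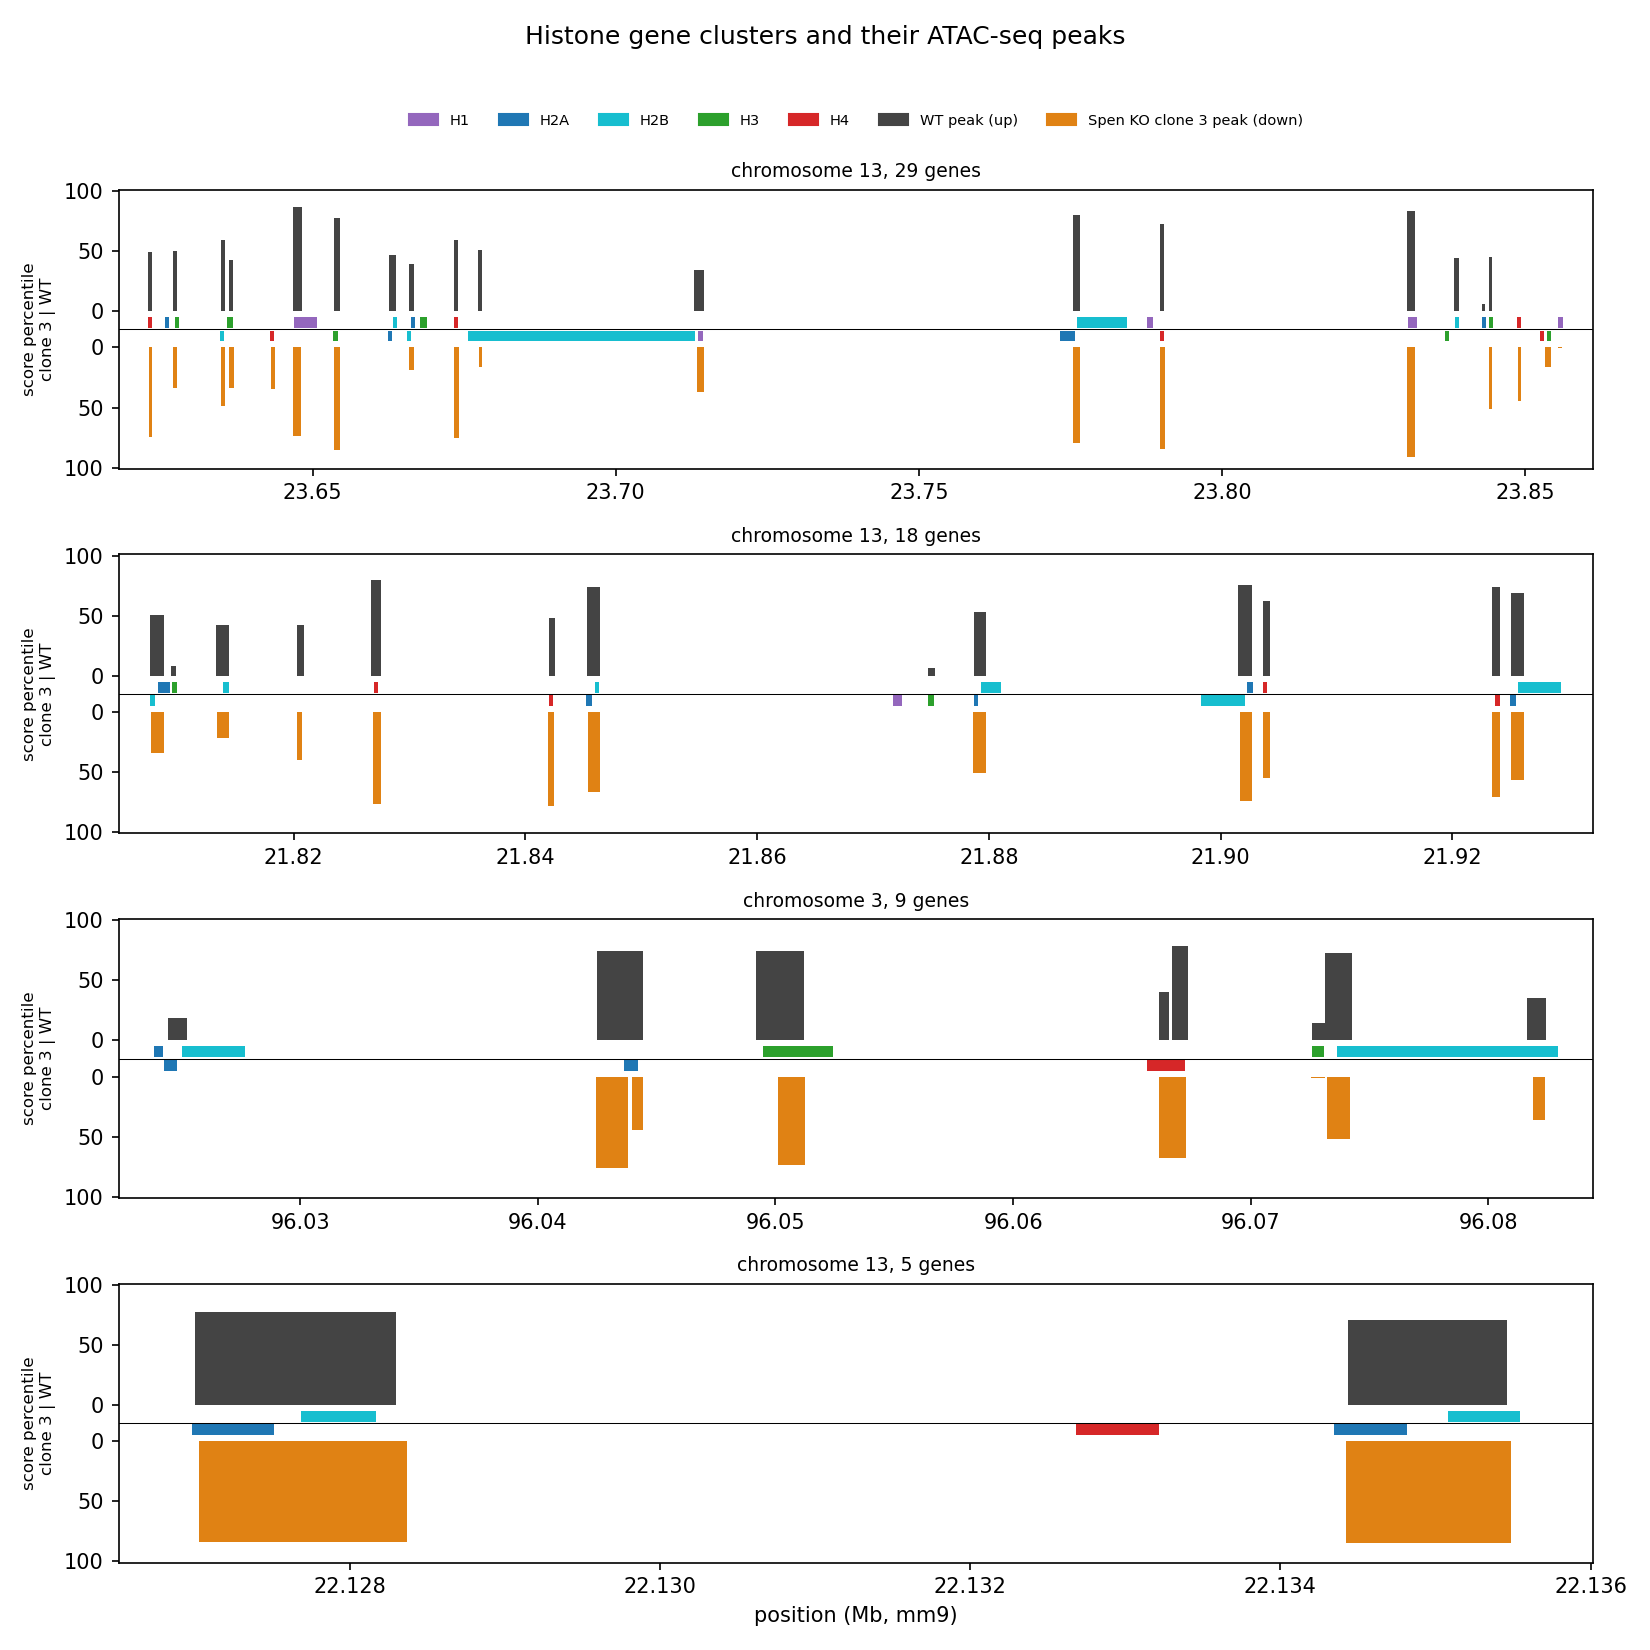
Maps of the 4 largest histone gene clusters, with genes as coloured boxes (plus strand above the line, minus strand under it), WT peaks pointing up and Spen KO clone 3 peaks pointing down, against position in Mb (mm9). The height of a peak is its score percentile in its own list (0 to 100), features narrower than a minimum are drawn at that minimum, and Hist2h2aa1 is hidden under the box of Hist2h3c1; peaks sit at the genes, with a single gap peak in the cluster of 18 genes.

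The linker histone genes, whose products bind the DNA that enters and leaves the nucleosome, held the highest-ranked peaks of the module. The Hist1h1d peak was the highest in WT, on chromosome 13 from 23646769 to 23648175 (1407 bp), at percentile 86.5 with replicates at 79.9 and 90.3. Its clone 3 peak ran from 23646821 to 23648101 (1281 bp) at percentile 73.9, with replicates at 68.5 and 77.0, below both WT replicates. Hist1h1c followed in WT with a peak from 23830528 to 23831873 (1346 bp) at percentile 83.3 (replicates 74.5 and 88.7). In clone 3 the Hist1h1c peak was the highest of all member peaks, from 23830622 to 23831846 (1225 bp) at percentile 91.1 (replicates 87.1 and 93.1), and its replicates overlapped the WT ones. Hist1h1e had a wide but lower peak, from 23712909 to 23714524 (1616 bp) in WT at percentile 34.6 (replicates 41.9 and 30.5). The clone 3 peak there ran from 23713358 to 23714527 (1170 bp) at percentile 37.2 (replicates 42.1 and 37.4). The WT peak also took in the annotated start of Hist1h2be (23712993) and an end of the noncoding gene Gm11398. The clone 3 peak reached neither, so the WT width cannot be given to Hist1h1e alone. Hist1h1a was found in clone 3 only, from 23855447 to 23856048 (602 bp), at percentile 0.372 with replicates at 1.36 and 0.106. That peak was among the weakest of its list, with an IDR of 0.0434. Hist1h1b, an H1 gene on chromosome 13 from 21871752 to 21872494, and Hist1h1t, which encodes the testis H1 and runs from 23787680 to 23788588, had no peak in either list. The sequence at both is unique, with 100% of the 75-base sequences within 1 kb of each gene occurring once in the genome. The nearest peak to Hist1h1b was 2.27 kb away in WT (at Hist1h3i) and 6.14 kb away in clone 3. For Hist1h1t it was the Hist1h4c peak, 1.18 kb away in WT and 1.24 kb in clone 3.

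H2A and H2B, which form the dimers on the sides of the nucleosome, are encoded mostly in divergent pairs. There were 13 pairs of members with annotated starts at most 1 kb apart, holding 26 genes, and all but the pair of Hist1h2bh with the H3 gene Hist1h3f joined an H2A to an H2B gene. A single WT peak covered both annotated starts of 11 pairs (84.6%), against 69.8% of 777 other divergent coding pairs. In clone 3 this held for 9 pairs (69.2%), against 63.1%, and neither difference was tested. The same counts were found for the coding starts. Pairs with a peak over both starts in both lists were Hist1h2bl/Hist1h2ai, Hist1h2ak/Hist1h2bn, Hist1h2an/Hist1h2bp, Hist1h2bq/Hist1h2ao, Hist1h2ap/Hist1h2br, Hist1h2ah/Hist1h2bk, Hist1h2ag/Hist1h2bj, Hist1h2bf/Hist1h2ad and Hist1h2ac/Hist1h2bc. The starts of the 11 WT pairs were 168 to 269 bp apart, and their peaks were 812 to 1299 bp wide in WT (median 1107 bp) and 805 to 1344 bp in clone 3 (median 1112 bp). Peaks over other divergent coding pairs had a median of 734 bp in WT and 689.5 bp in clone 3. The highest of these peaks in WT covered Hist1h2ac and Hist1h2bc, from 23775383 to 23776649 (1267 bp) at percentile 80.0 (replicates 77.0 and 81.6). In clone 3 it ran from 23775406 to 23776657 (1252 bp) at percentile 79.3 (replicates 70.8 and 84.1). In clone 3 the highest was that of Hist1h2ag/Hist1h2bj, at percentile 84.8 (replicates 78.6 and 88.5) against 70.9 in WT (replicates 62.2 and 77.0). Of the 9 shared pair peaks, this and Hist1h2ah/Hist1h2bk (77.1 in WT, 84.2 in clone 3) ranked higher in clone 3 and the other 7 lower. Among all paired peaks near annotated coding gene starts, 37.4% ranked higher in clone 3. At Hist1h2ah/Hist1h2bk the replicates overlapped (66.3 and 83.9 in WT, 87.7 and 77.6 in clone 3). Hist1h2bf/Hist1h2ad was at 39.4 in WT with a shift of -20.4, and Hist1h2ak/Hist1h2bn at 74.3 in WT and 66.4 in clone 3, with the clone 3 replicates below the WT ones at both. Hist1h2bl/Hist1h2ai was at 51.0 and 34.3 and Hist1h2an/Hist1h2bp at 53.4 and 50.6, with overlapping replicates. These pairs were named after their values were seen.

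The other 4 pairs had separate peaks, a peak in WT only or none. Hist1h2bh and Hist1h3f, with starts 693 bp apart, each had a peak of their own in both lists. The Hist1h2bh peak ran from 23634855 to 23635471 (617 bp) in WT at percentile 59.0 (replicates 49.3 and 66.2), and from 23634854 to 23635471 (618 bp) in clone 3 at percentile 49.2 (replicates 49.6 and 50.4). The Hist1h3f peak ran from 23636165 to 23636782 (618 bp) in WT at percentile 42.4 (replicates 38.7 and 48.2). In clone 3 it ran from 23636166 to 23636957 (792 bp) at percentile 34.1 (replicates 19.3 and 53.0). At both genes the replicates of the lines overlapped. Hist1h2ae and Hist1h2bg shared a WT peak from 23662631 to 23663758 (1128 bp) at percentile 47.0 (replicates 48.5 and 45.4), and the nearest clone 3 peak was 2.12 kb away. Hist2h2ac and Hist2h2be, on chromosome 3, shared a weaker WT peak from 96024442 to 96025259 (818 bp) at percentile 18.8 (replicates 14.5 and 29.9). No clone 3 peak lay within 17.2 kb of it, and it was also the WT-only peak beside Hist2h2ab, an H2A gene from 96023839 to 96024231. The last pair was Hist1h2ba (24025637 to 24026025) and Hist1h2aa (24026331 to 24026720), which encode the testis variants of H2B and H2A. Neither had a peak in either list. Their nearest peaks were 56.8 kb (Hist1h2ba) and 56.1 kb (Hist1h2aa) away in clone 3 and 161 kb away in WT for both. All 3 testis variants, Hist1h1t included, were thus without a peak.

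Outside the pairs, the H2B gene Hist1h2be showed the largest rank shift of all shared member peaks. The WT peak over its coding start, from 23677343 to 23677988 (646 bp), was at percentile 51.4 with replicates at 31.8 and 66.7. The clone 3 peak, from 23677405 to 23677948 (544 bp), was at percentile 16.6 with replicates at 19.7 and 16.1, a shift of -34.8 percentile points (clone 3 minus WT). Both clone 3 replicates lay under both WT replicates, although the WT replicates were themselves far apart. Hist2h2bb, an H2B gene of the chromosome 3 cluster, shifted by -20.8, from percentile 72.3 in WT (96073137 to 96074280, 1144 bp, replicates 60.4 and 80.4) to 51.5 in clone 3 (96073214 to 96074165, 952 bp, replicates 51.8 and 51.6). A further peak at the far end of Hist2h2bb was shared, at percentile 35.4 in WT and 36.5 in clone 3. Hist3h2a, an H2A gene on chromosome 11, went the other way by 25.1 points. Its WT peak, from 58767734 to 58768830 (1097 bp), was at percentile 24.5 (replicates 37.6 and 17.1), and its clone 3 peak, from 58767684 to 58768675 (992 bp), at 49.5 (replicates 58.2 and 40.5). The annotated start of Hist3h2a is also that of Trim17, a ubiquitin ligase gene, so the peak cannot be assigned to either gene. Its neighbour Hist3h2ba, an H2B gene, was at percentile 75.1 in WT and 64.4 in clone 3. Hist1h2bm, an H2B gene, was at 42.0 and 21.7, with overlapping replicates.

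Single H2A and H2B genes also gave list-only peaks. Hist1h2bb, an H2B gene, had a WT-only peak from 23838257 to 23839056 (800 bp) at percentile 44.2 (replicates 33.6 and 55.2), which was also the peak within 1 kb of the H3 gene Hist1h3c (23836842 to 23837471). Hist1h2ab, an H2A gene, had a weak WT-only peak over its coding start, from 23842929 to 23843381 (453 bp) at percentile 5.93 (replicates 5.90 and 7.23). A shared peak at Hist1h3b still lay within 1 kb of Hist1h2ab, so it counted as a gene with peaks in both lists. Hist1h2al, an H2A gene that lies alone on chromosome 13, far from the clusters, had the strongest list-only peak of the module. This clone 3 peak ran from 51298039 to 51298491 (453 bp) and was at percentile 71.2, with replicates at 77.5 and 60.9 and an IDR of 0.000121. The nearest WT peak was 80.3 kb away. In the Hist1h2al peak 52.8% of the 75-base sequences occur once in the genome. Hist1h2af, an H2A gene, was without a peak of its own, and the shared peak within 1 kb of it covered Hist1h3g.

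In WT the widest peaks lay over duplicated H2A genes of the chromosome 3 cluster. In clone 3 the widest was that of Hist1h2ah/Hist1h2bk (1344 bp), on chromosome 13. The WT peak over Hist2h2aa1 and the H3 gene Hist2h3c1 was the widest, from 96049183 to 96051188 (2006 bp), at percentile 74.0 (replicates 69.3 and 77.4). The clone 3 peak there ran from 96050121 to 96051237 (1117 bp) at percentile 73.8 (replicates 51.3 and 85.0) and covered the coding start of Hist2h3c1 but not that of Hist2h2aa1. The WT peak over Hist2h2aa2 came next, from 96042471 to 96044407 (1937 bp), at percentile 74.6 (replicates 64.2 and 81.6). In clone 3 the same stretch held 2 peaks, from 96042469 to 96043805 (1337 bp) at percentile 76.4 (replicates 76.7 and 74.6) and from 96043977 to 96044417 (441 bp) at percentile 44.1 (replicates 51.3 and 39.2). Hist1h1e held the third widest peak. The chromosome 3 sites were thus narrower or split in clone 3, at places where few reads can be placed uniquely: 12.2% of the 75-base sequences in the Hist2h2aa2 WT peak and 13.0% of those in the Hist2h2aa1 WT peak occur once in the genome.

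All 11 H3 genes, whose product forms the core tetramer with H4, had a WT peak within 1 kb, and 9 had one in clone 3. Hist1h3e had the highest WT peak of the class, at percentile 77.4 (replicates 55.4 and 88.5) and at 85.1 in clone 3 (replicates 77.2 and 89.5). Its WT peak ran from 23653507 to 23654516 (1010 bp). Lower shared peaks lay over Hist1h3b (45.2 in WT, 50.8 in clone 3), Hist1h3g (34.0 in clone 3, a shift of -16.0) and Hist2h3b (14.7 in WT, 1.24 in clone 3). At Hist1h3g the WT replicates (36.3 and 62.0) and the clone 3 replicates (27.2 and 45.6) overlapped. The H3 genes found in WT only were Hist1h3c, by the Hist1h2bb peak, and Hist1h3i. The Hist1h3i peak ran from 21874765 to 21875313 (549 bp) at percentile 6.90 (replicates 1.99 and 12.0), and the nearest clone 3 peak was 3.32 kb away. Hist1h3h also had a weak WT-only peak over its coding start, from 21809428 to 21809889 (462 bp) at percentile 7.86 (replicates 5.33 and 10.9), while the shared Hist1h2bl/Hist1h2ai peak lay within 1 kb. Hist1h3d lay beside the Hist1h2bf/Hist1h2ad peak. Hist1h3a was covered in clone 3 only, by a peak from 23853238 to 23854368 (1131 bp) at percentile 16.2, which overlapped a WT peak beside Hist1h3a and the H4 gene Hist1h4a (23853280 to 23853700, 421 bp) at percentile 0.374.

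List-only peaks at H4 genes were all from clone 3, as was the single one at an H1 gene, while the H3 and H2B genes with a peak within 1 kb in 1 list had it in WT and the H2A genes were split. A WT peak lay within 1 kb of 9 of the 13, a clone 3 peak of 12, and 3 (23.1%) had one in clone 3 only and none in WT only. Over all coding genes 4.77% had a peak in clone 3 only, and the contrast between classes was not tested. Hist1h4f had a clone 3 peak from 23643182 to 23643660 (479 bp) at percentile 34.9 (replicates 37.1 and 38.4, IDR 0.00510). Hist1h4b had one from 23848801 to 23849387 (587 bp) at percentile 44.4 (replicates 19.9 and 65.5, IDR 0.0297). Hist4h4, the lone member on chromosome 6, had one from 136752201 to 136752972 (772 bp) at percentile 33.1 (replicates 44.6 and 26.3, IDR 0.0241). At an IDR of at most 0.01, Hist1h4f was the only 1 of these 3 left. The nearest WT peak to that of Hist4h4 was 3.50 kb away, at the histone gene H2afj. Hist1h4i (22132685 to 22133221) had no peak in either list. The Hist1h2ag/Hist1h2bj peak ended 1.21 kb from it in WT and 1.20 kb in clone 3.

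Of the 11 shared peaks within 1 kb of an H4 gene, 5 ranked higher and 6 lower in clone 3. Near annotated coding gene starts in general, 37.4% of paired peaks ranked higher in clone 3. Hist1h4k shifted by 29.6 points, from percentile 48.2 in WT (21842059 to 21842517, 459 bp, replicates 25.7 and 66.1) to 77.8 in clone 3 (21841983 to 21842507, 525 bp, replicates 75.8 and 78.2). Hist1h4h shifted by 25.7 points, from 49.0 (23622911 to 23623376, 466 bp, replicates 62.4 and 29.8) to 74.7 (23622911 to 23623513, 603 bp, replicates 76.5 and 71.2). At both genes the clone 3 replicates lay above the WT ones, while the WT replicates differed by more than the shift itself. Hist1h4d shifted by 16.0 and Hist1h4c by 11.7 points, and the peak beside Hist1h4a and Hist1h3a by 15.8. The others were lower in clone 3: Hist2h4 by -10.7 points, the peak over most of Hist1h4m by -6.87, Hist1h4n by -3.35 and Hist1h4j by -2.98. So were the Hist1h2ap/Hist1h2br peak near Hist1h4n (-12.1) and the Hist1h2bq/Hist1h2ao peak near Hist1h4m (-1.36), which belong to H2A and H2B pairs. Hist1h4j and Hist2h4 had the highest WT peaks of the class. The Hist1h4j peak ran from 21826683 to 21827571 (889 bp) in WT at percentile 79.9 (replicates 65.6 and 88.0), and from 21826823 to 21827550 (728 bp) in clone 3 at 76.9 (replicates 79.5 and 71.9). The Hist2h4 peak ran from 96066671 to 96067345 (675 bp) in WT at percentile 78.2 (replicates 74.0 and 81.1). In clone 3 it ran from 96066148 to 96067284 (1137 bp) at percentile 67.5 (replicates 41.4 and 81.3) and also took in a second, lower WT peak inside the gene. The median of these shifts, grouped after the values were seen, was -1.36 points over all 11 and 11.7 over the 7 peaks on an H4 coding start. With Hist1h4m added to those 7 it was 4.34, and for these 8 peaks it was 0.0175 without replicate 1 and 14.0 without replicate 2. Its sign and size thus depend on the peaks and replicates taken, and no direction is given for the H4 genes.

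**Figure D2:**
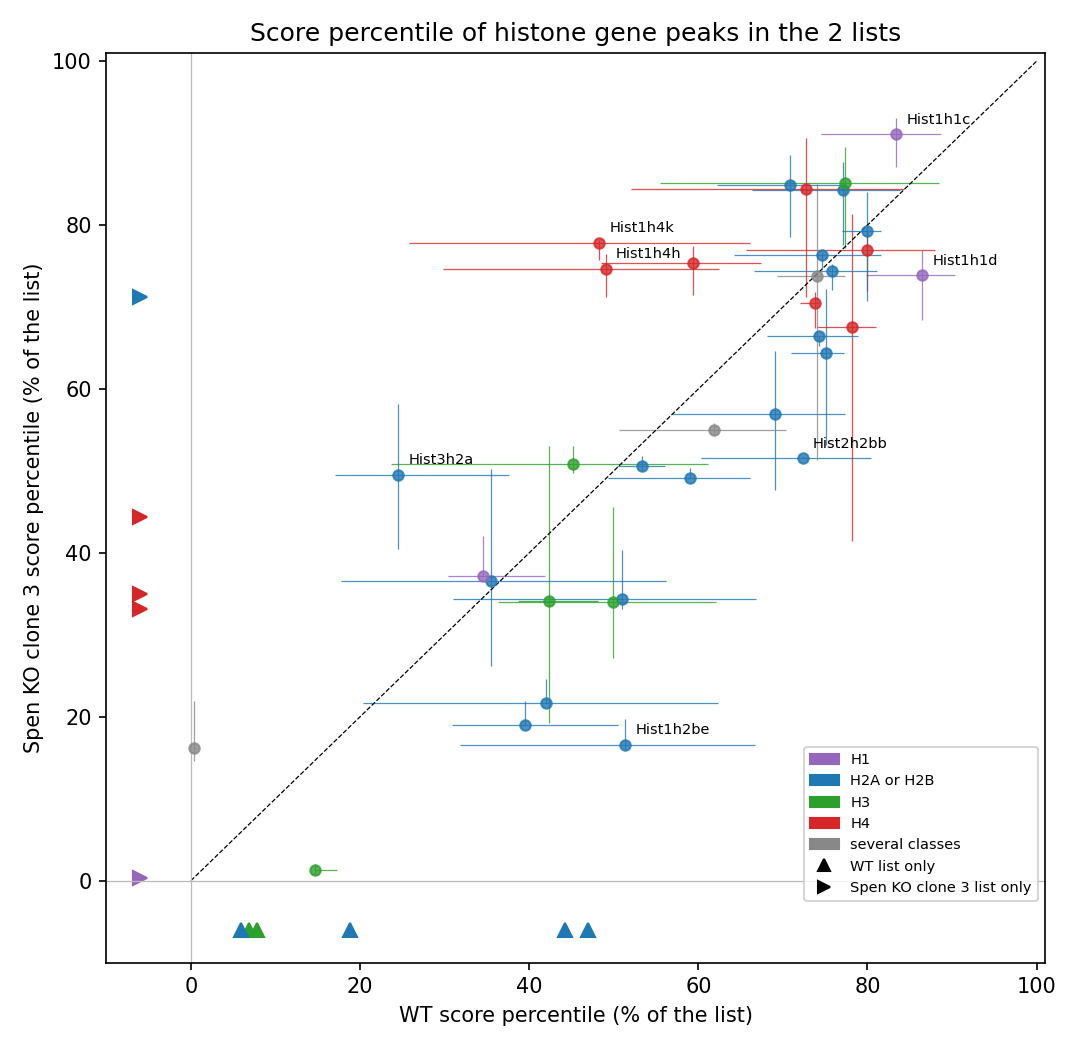
Score percentile of each shared member peak in WT (x axis) and Spen KO clone 3 (y axis), both as % of the list, with lines that span the replicate percentiles and the dashed line of equal rank. Triangles outside the axes are the 6 WT-only and 5 clone 3-only peaks; the named genes are the 5 largest shifts with Hist1h1c and Hist1h1d, and for most peaks the replicates of the lines overlap.

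Counted by peak, 42 in WT and 41 in clone 3 lay within 1 kb of a member. Of the WT member peaks 6 (14.3%, 95% Wilson interval 6.72 to 27.8) were WT-only, against 20.2% of all WT peaks within 1 kb of a coding TSS. Of the clone 3 member peaks 5 (12.2%, interval 5.32 to 25.5) were clone 3-only, against 12.9%. The background lay inside both intervals. With the IDR limit of 0.01 applied only to the list of the peak, each count was 2. Applied to both lists, a choice made after the data were seen, it left 34 WT member peaks with 7 WT-only (20.6%, against 25.2% at coding TSSs) and 29 clone 3 member peaks with 2 clone 3-only (6.90%, against 6.82%). The 35 peaks paired between the lists had a median shift of -2.78 points, against -2.74 for the 7001 paired peaks at coding TSSs. Both clone 3 replicates lay above both WT ones at 6 of them (17.1%, against 13.4% at coding TSSs) and below at 7 (20.0%, against 28.9%). The replicates of the lines overlapped at the other 22. The median shift of the histone gene peaks was close to that of promoters at large, and it was 0.278 without replicate 2.

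The histone gene peaks ranked in the middle of the lists. Their median percentile was 52.4 in WT and 55.0 in clone 3, against 61.8 and 59.3 for all peaks within 1 kb of a coding TSS. None of the WT member peaks lay above the 90th percentile, where 15.3% of coding TSS peaks lay, and in clone 3 only that of Hist1h1c did, against 14.7%. The WT replicates ranked the histone genes unequally. At 33 of the 42 member peaks (78.6%, against 49.8% of coding TSS peaks) replicate 2 ranked higher, by a median of 14.5 points over all member peaks, against -0.0264 at coding TSSs. The WT median was 66.4 by replicate 2 and 49.8 by replicate 1. In clone 3 the replicates differed by a median of 1.45 points at member peaks, against -0.469. The WT replicates thus differed by more than the median shift between the lines, and its source was not tested.

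Peaks at histone genes were wide for promoters. The median width was 806 bp in WT and 805 bp in clone 3, against 646 and 615 bp at coding TSSs. Of the member peaks 42.9% in WT and 36.6% in clone 3 were at least 1000 bp wide, against 8.85% and 7.11%. Peaks over 2 coding starts were the wider ones, with a median of 1117.5 bp in WT and 1112 bp in clone 3, against 695 and 753 bp for peaks over 1 coding start. They also ranked higher, at a median percentile of 70.0 in WT and 66.4 in clone 3, against 50.7 and 50.8. Peaks over a coding start often covered the whole coding sequence. Each list had 38 such member peaks, those over 2 coding starts included, and the median share of the coding sequence covered was 100%. It was 61.0% in WT and 66.4% in clone 3 for peaks over other coding genes with a single exon and at most 1000 coding bp. Coding length was not matched between these sets.

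Where the peaks ended along the gene is given by class, over few peaks each, and differences between classes were not tested. All 7 WT peaks and all 10 clone 3 peaks over a single H4 coding start covered the gene to its coding end, and they passed it by a median of 248 bp in WT and 249 bp in clone 3. The 3 WT peaks over H1 genes (Hist1h1d, Hist1h1c and Hist1h1e) passed the coding end by a median of 554 bp and began only 190 bp before the coding start. In clone 3 the median was 416 bp, and the peak of Hist1h1a alone among the 4 stopped inside the coding sequence. For H3, 4 of 7 WT peaks and 5 of 7 clone 3 peaks covered the coding end. For H2B genes outside shared peaks the peak began 384.5 bp before the coding start in WT and 358 bp in clone 3. The median end was 2 bp past the coding end in WT (3 of 6 covered it) and -10 bp in clone 3 (2 of 5). Single H2B peaks differed from this. The Hist2h2bb peak, at a gene with 2 coding segments, ended at -7524 bp in WT and -7639 bp in clone 3. That of Hist3h2ba ended at -198 and -186 bp. Of the 3 H2A peaks in each list 2 covered the coding end, with a median of 201 bp past it in WT and 21 bp in clone 3 over all 3. Peaks over other single-exon genes began 384 bp before the coding start in WT and 358.5 bp in clone 3. They stopped short of the coding end, at a median of -184 bp in WT and -168 bp in clone 3. Their coding length was not matched to that of the members.

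**Figure D3:**
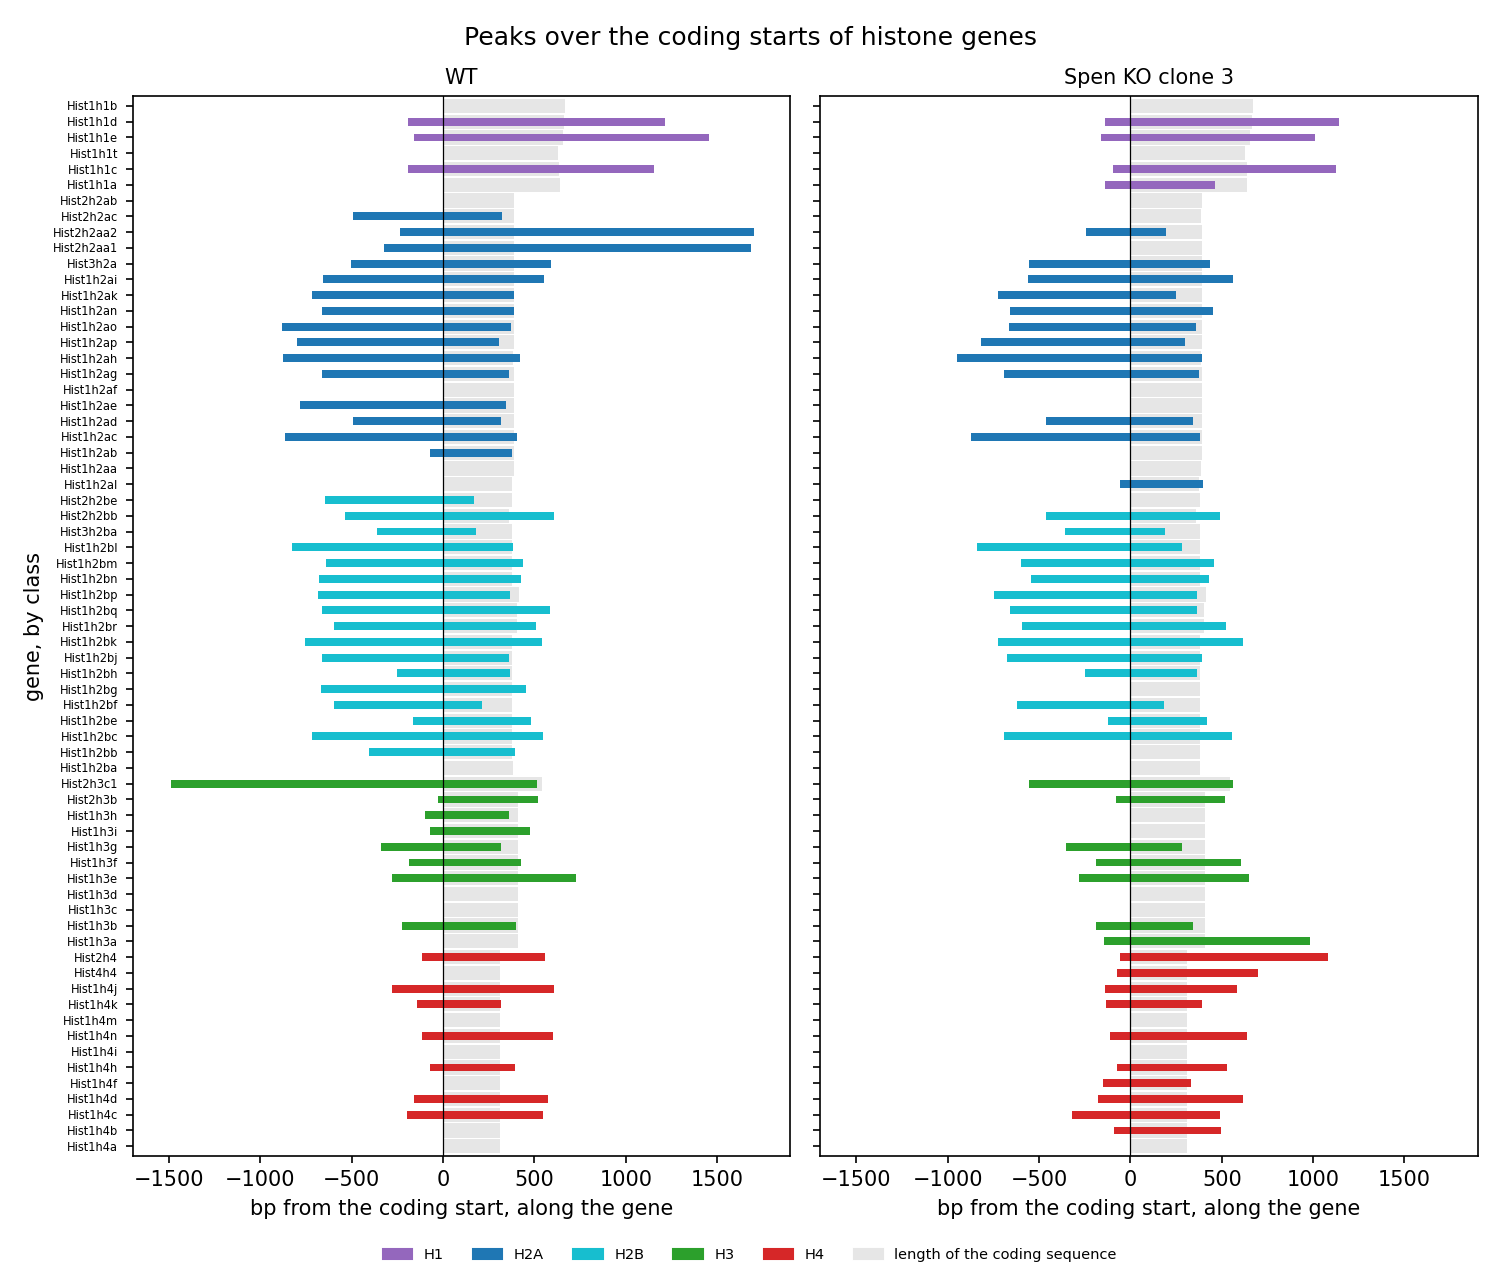
Extent of the peak over the coding start of each member, in bp from the coding start along the direction of the gene, for WT (left) and Spen KO clone 3 (right). Grey bars show the length of the coding sequence, coloured bars the peak by class, and a gene without a coloured bar had no peak over its coding start; all H4 bars and all H1 bars but that of Hist1h1a reach past the coding sequence.

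By position, most members lay in 4 clusters when neighbours at most 100 kb apart were joined. The largest, with 29 genes, ran from 23622919 to 23856283 on chromosome 13 (233 kb) and holds also Hfe, the hemochromatosis gene. In it, 25 members had a WT peak and 24 a clone 3 peak. A cluster of 18 genes ran from 21807632 to 21929399 (122 kb), with peaks at 17 in WT and 16 in clone 3. In the cluster of 5 genes from 22126982 to 22135545, the peaks of both pairs ranked higher in clone 3, and Hist1h4i was without one. In the cluster of 9 genes on chromosome 3, from 96023839 to 96082924, all 9 had a WT peak and 6 a clone 3 peak. Between the genes the clusters were nearly free of peaks. A single gap peak was found in each list, and it was shared, from 21820300 to 21820861 in WT at percentile 42.0 (replicates 29.8 and 55.4) and from 21820260 to 21820767 in clone 3 at percentile 39.7 (replicates 20.7 and 59.1). It lay 5864 bp from Hist1h2bm in WT, with no annotated gene within 1 kb, and its IDR of 0.0331 in clone 3 was above the stricter limit of 0.01.

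Some histone genes are near-identical copies, which bears on what the peaks can show. Around the coding start the median share of 75-base sequences that occur once in the genome was 83.4% for members and 100% for other coding genes. Hist1h2bq, Hist1h2br, Hist1h2ap, Hist1h2ao, Hist1h4m, Hist1h4n, Hist2h2aa1 and Hist2h2aa2 had under 50% unique sequence within 1 kb. Within the member peaks themselves, 11 of 42 in WT (26.2%, against 1.40% at coding TSSs) were under 50% unique. In clone 3 it was 11 of 41 (26.8%, against 1.33%). Among the WT ones were the WT-only peaks of Hist1h3h (25.5%), Hist1h3i (44.4%) and Hist1h2ab (44.6%). The other WT-only peaks were 59.6 to 88.3% unique. The pair Hist1h2bq/Hist1h2ao lies in a stretch of 10523 bp (21893127 to 21903649) whose exact inverted copy (21924031 to 21934553) holds Hist1h2ap/Hist1h2br. Both pairs had a peak in each list, without a single unique 75-base sequence in it. Hist1h2bq/Hist1h2ao was at percentile 75.8 in WT and 74.4 in clone 3, and Hist1h2ap/Hist1h2br at 69.0 and 56.9. Since the copies are the same, reads cannot be told apart between them, and the values of these 4 genes are uncertain. The methods of the study state that unique reads were kept. They also describe a second mapping in which reads with several places were put at 1 of them at random. Which mapping gave each list was not tested. Over the whole lists, 391 WT peaks (1.72%) and 526 clone 3 peaks (2.22%) held no unique 75-base sequence. Hist2h2aa1 and Hist2h2aa2 share 663 bp of exact inverted sequence. Without the 8 genes, 49 members had a WT peak and 46 a clone 3 peak. The pseudogenes Hist3h2bb-ps, Hist1h2aj and Hist2h3c2, which are not members, each lay under 1 peak per list.

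The promoters, here 250 bases before to 50 bases after the annotated start, were searched on both strands for letters known from histone genes. CCAAT, the letters bound by NF-Y, was in 57 members (85.1%, against 37.9% of all coding promoters of that length), among them all H1, H2A and H2B genes and 10 of the 11 H3 genes, but only 4 of the 13 H4 genes. TATAAA was in 38 members (56.7%, against 13.4%). The octamer ATGCAAAT, bound by Pou2f1, was in 15 members (22.4%, against 1.73%), 7 of them H2A and 8 H2B genes. GGTCCG, the core of the H4 element bound by Hinfp, was in 12 of the 13 H4 genes, all but Hist1h4a, and in 15 members in all (22.4%, against 9.79%). AAACACA, known from H1 genes, was in 5 of the 6 H1 genes, all but Hist1h1a, and in 10 members in all (14.9%, against 6.42%). CACGTG was in none (7.79% of all coding promoters). Because divergent genes share their upstream DNA, 1 copy can count for both. Members without a peak over the coding start held these letters too: CCAAT was in 9 of those 11 and TATAAA in 8. The 300 bases before the coding start, a window chosen after the data were seen, held CCAAT in 58 members (86.6%, against 32.9% of all coding genes). TATAAA was in 40 members there (59.7%, against 15.7%), the octamer in 16 (23.9%, against 1.57%) and GGTCCG in 14 (20.9%, against 9.40%). AAACACA was in 11 (16.4%, against 7.90%) and CACGTG in 0 (5.76% of all coding genes). For this window the distance from annotated to coding start was not matched between members and other genes. A match is a description of the sequence and not of binding.

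The 200 bases before the annotated start are printed for the highest-ranked WT peak of each class and for 3 members without a peak, to show the letters before these starts. All were read from mm9 on the strand of the gene, in the order 5′ to 3′, as intergenic sequence upstream of the gene. Capitals mark every match to the letters searched for, in either orientation. Hist1h1d is at chr13:23646701-23646900 on the plus strand, with TATAAA 26 bases and CCAAT 51 bases before the start; the WT peak begins inside the printed stretch, at 23646769. Hist1h2ac is at chr13:23775818-23776017 on the minus strand, and Hist1h2bc at chr13:23775868-23776067 on the plus strand. This pair shares most of the printed DNA, so the octamer 141 bases before Hist1h2ac is the same as the one 117 bases before Hist1h2bc. Hist1h3e is at chr13:23654239-23654438 on the minus strand, with 4 copies of CCAAT. Hist1h4j is at chr13:21826703-21826902 on the plus strand, with GGTCCG 18 bases before the start. Of the members without a peak, Hist1h1b is at chr13:21872495-21872694 on the minus strand, with TATAAA 28 and CCAAT 53 bases before the start, near the places of both in Hist1h1d. Hist1h4i is at chr13:22133222-22133421 on the minus strand, with GGTCCG 56 bases before the start. Hist1h1t is at chr13:23787480-23787679 on the plus strand, with CCAAT 65 bases before the start.
Hist1h1d: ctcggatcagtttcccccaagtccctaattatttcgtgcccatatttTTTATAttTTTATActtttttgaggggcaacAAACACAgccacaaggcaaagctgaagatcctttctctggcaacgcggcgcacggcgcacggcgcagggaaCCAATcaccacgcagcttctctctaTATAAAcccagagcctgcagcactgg
Hist1h2ac: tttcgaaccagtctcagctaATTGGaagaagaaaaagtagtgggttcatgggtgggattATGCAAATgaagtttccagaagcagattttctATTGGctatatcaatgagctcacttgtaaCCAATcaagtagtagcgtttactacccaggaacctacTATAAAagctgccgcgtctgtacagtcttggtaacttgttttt
Hist1h2bc: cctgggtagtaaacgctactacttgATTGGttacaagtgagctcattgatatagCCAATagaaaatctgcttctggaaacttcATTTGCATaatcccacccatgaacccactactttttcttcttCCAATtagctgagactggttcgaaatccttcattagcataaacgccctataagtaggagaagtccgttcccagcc
Hist1h3e: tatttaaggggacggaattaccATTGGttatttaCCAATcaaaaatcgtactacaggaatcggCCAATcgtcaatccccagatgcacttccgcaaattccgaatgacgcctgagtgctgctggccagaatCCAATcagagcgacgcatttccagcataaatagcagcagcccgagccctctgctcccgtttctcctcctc
Hist1h4j: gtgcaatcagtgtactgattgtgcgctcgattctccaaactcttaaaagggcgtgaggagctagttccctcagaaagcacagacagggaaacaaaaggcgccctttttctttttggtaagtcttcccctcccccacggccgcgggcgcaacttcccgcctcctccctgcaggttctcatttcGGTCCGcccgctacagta
Hist1h1b: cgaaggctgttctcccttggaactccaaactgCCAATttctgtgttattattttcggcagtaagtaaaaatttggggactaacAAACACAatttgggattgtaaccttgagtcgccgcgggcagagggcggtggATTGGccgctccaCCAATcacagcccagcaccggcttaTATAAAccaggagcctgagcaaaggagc
Hist1h4i: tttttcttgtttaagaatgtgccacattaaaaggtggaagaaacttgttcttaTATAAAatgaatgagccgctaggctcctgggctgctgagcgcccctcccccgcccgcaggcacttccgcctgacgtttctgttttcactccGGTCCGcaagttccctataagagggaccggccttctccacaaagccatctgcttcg
Hist1h1t: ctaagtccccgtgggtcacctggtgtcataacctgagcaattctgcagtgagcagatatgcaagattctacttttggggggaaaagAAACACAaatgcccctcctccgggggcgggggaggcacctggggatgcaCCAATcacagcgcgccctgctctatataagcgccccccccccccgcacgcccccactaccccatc

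Genes that act on or beside the histone genes were counted by a peak within 1 kb of the start, which 43.0% of all coding genes had in WT and 39.3% in clone 3. Of 11 histone genes outside the replication-dependent set, 8 had a WT peak, 6 a clone 3 peak and 5 both, at median percentiles of 65.8 and 65.1. H2afv was the highest, at 98.6 in WT and 96.6 in clone 3, above every histone member, and was named after the values were seen. Of 17 genes for the histone locus body, transcription and 3′ end of histone mRNAs, 14 had a peak in each list and 13 in both, at medians of 89.6 in WT and 73.2 in clone 3. Npat, the scaffold of the locus body, was at 93.0 and 86.7, and Slbp, which binds the stem-loop, at 95.5 and 96.9. Casp8ap2, a locus body component, was at 95.9 and 96.4, and Hinfp, the H4 gene regulator, at 97.1 and 92.3. Others ranked lower: Pou2f1, which encodes an octamer-binding protein, was at 49.7 and 19.9, and of the 3′ end genes Sympk was at 51.5 and 28.1 and Cpsf2 at 41.0 and 64.7. Lsm11 had a peak in WT only (27.8) and Cpsf3 in clone 3 only (50.8), and Zfp473 and Nfyc had none in either list. Of the 6 histone chaperone genes 5 had a WT peak and 6 a clone 3 peak, with medians of 65.6 and 64.6.

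Markers of cell types were counted in the same way. Of 9 pluripotency genes found, Zfp42, Pou5f1 and Utf1 had a peak within 1 kb of the start in both lists, Sox2 in WT only and Klf4 in clone 3 only, while Nanog, Esrrb, Dppa5a and Tdgf1 had none. With 4 of 9 in each list, these genes were near the background of 43.0% in WT and 39.3% in clone 3, so the count does not check the label. None of the 4 primitive endoderm, 2 trophoblast and 1 neural marker genes had one in either list. Of the 3 mesoderm genes, Eomes had a weak clone 3 peak (percentile 4.92), and of the 3 fibroblast genes, Thy1 had a WT peak (percentile 21.7). Spen had a peak at its start in each list, at percentile 37.6 in WT and 43.7 in clone 3, so a peak there does not check the knockout.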

How the data were processed

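Peak lists for WT and Spen KO clone 3 were used. Per the labels and methods, the authors demultiplexed reads with bcl2fastq, cut adapters with cutadapt, aligned to mm9 using Bowtie2, filtered for properly paired and unique reads, dropped duplicates (Picard), ran MACS2 for each technical replicate (2 per line) and retained peaks under an IDR of 0.05, and bedtools was also used (no version is given for the ATAC-seq step). The score columns deposited by the authors hold a value per replicate on an unnamed scale, and the lists also hold peak length and IDR. No change in read position for the Tn5 cut is described in those sources, which could move peak edges by a few bases.

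Here, peaks on chromosomes 1 to 19 and X were joined to members of the GENCODE annotation of mm9 within 1 kb of the gene. Overlap of at least 1 bp counted as shared; pairs for rank shifts were mutual best overlaps. The other 55 WT and 66 clone 3 peaks were left out. Divergent pairs had annotated starts at most 1 kb apart. Uniqueness was the share of 75-base sequences that occur once in the genome on either strand. With 1 list per line no test was made. Wilson intervals (95%) cover counting error only. Overlaps, mutual best pairs, divergent pairs and counts of 75-base sequences were checked on simulated data.

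Values are given in full for the 5 highest WT peaks, the 5 largest rank shifts, members with a peak in 1 list only or none, the 3 widest peaks, pairs with separate or no peaks and gap peaks. Members and lists were chosen with earlier results of these data known. Gene lists were replication-independent histones, locus body and 3′ end genes, chaperones and cell type markers, and H1f0, Ice1, Tfcp2l1 and Sox1 were not matched by name. Alternatives were the distance, the IDR limit, list length, overlap, each replicate alone and unique sequence. The code ran on pysam 0.24.0, numba 0.67.0, scipy 1.17.1, pandas 2.3.3, numpy 2.4.6 and Python 3.11.15.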

Additional observations from a re-analysis of the deposited data

How the results depend on the processing

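Of 83 alternatives on the counts, medians and pairs given above, 74 stayed within 1 SD of the replicates or the 95% interval for a median, or within the ratio of 3 to 2 for a count. Values inside these limits still differed, such as 12 instead of 8 members in WT only, 40 instead of 54 with a clone 3 peak and 38 instead of 49 with both at an IDR of at most 0.01, or a median shift of member peaks of -0.00605 when ranked among coding TSS peaks. At an IDR of at most 0.01 in both lists, members with a peak in clone 3 only numbered 2 instead of 5, clone 3-only member peaks 2 instead of 5, WT-only member peaks 7 instead of 6 and clone 3 gap peaks 0 instead of 1. With the limit on the list of the peak alone, WT-only member peaks numbered 2 and clone 3-only ones 2. With 1 replicate left out, the median percentile of member peaks ran from 49.8 to 66.4 in WT and from 51.8 to 55.9 in clone 3, and the median shift from -5.97 to 0.278, which changed its sign. Ranked among peaks within 1 kb of a coding TSS, the clone 3 median was 47.8. The median H4 shift was -1.36 over all shared peaks within 1 kb of an H4 gene, against 4.34 at H4 genes alone. The causes were not tested. No paired analysis was possible because no result comes from a test and each line has 1 list. The coding start, the second promoter window, the IDR limit on both lists for peaks and the alternatives for the H4 shifts were chosen after seeing the data.

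Depth is unknown, and a peak missing from a list is not a measurement of closed chromatin. Both lists come from technical replicates, which do not show the spread between cultures or clones. Short, similar neighbours limit which gene a peak belongs to.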
